A study of Mus musculus with 8 samples.

Results

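The 10 genes that encode the phototransduction proteins of cone photoreceptors were examined in retinal pigment epithelium (RPE) eyecups of mice lacking the ciliary gene Bbs8. They were chosen by symbol (Opn1sw, Opn1mw, Gnat2, Gnb3, Gngt2, Pde6c, Pde6h, Cnga3, Cngb3 and Arr3), and all 10 were found among the 31053 gene identifiers of the count files. QuantSeq libraries, in which reads come from the 3′ ends of mRNAs, were made of wild-type littermates (Bbs8+/+, 4 libraries) and Bbs8 knockout mice (Bbs8-/-, 4 libraries), all of strain C57/Bl6 at postnatal day 11 (P11). The labels do not give the sex of the animals. All 8 libraries held both Xist, the transcript of the inactive X chromosome (570 to 746 CPM), and Y-linked transcripts (58.98 to 119.5 CPM for 4 genes), so each held RNA of both sexes and none looks like the RNA of a single animal, although the study's methods count each animal as a biological replicate. The p-values therefore refer to the spread between libraries, which may be technical. In the study's RNA protocol, eyecups were homogenized after muscle, fat, cornea, lens, retina and optic nerve had been removed. The RPE would then be measured together with choroid and sclera. The study's results call the sequenced material isolated RPE specimens. Its methods also describe RPE sheets peeled from the choroid, without naming the assay.

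Cones are the photoreceptors of daylight and colour vision. Light activates a cone opsin, which switches on the G protein transducin. Transducin in turn activates a phosphodiesterase that breaks down cyclic GMP, and the cyclic nucleotide-gated channel of the outer segment closes. Arrestin then ends the signal. Rods use the same chain with their own version of nearly every part, and the outer segments of both cell types are modified cilia that face the RPE.

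RPE transcripts were abundant, and the counts of the cone genes were low. Each library held between 1636725 and 2884983 gene counts, so that a single count was worth 0.347 to 0.611 CPM (counts scaled to a common library total), and the detection floor of 3 counts lay at 1.04 to 1.83 CPM. Floors and counting intervals reflect sampling of reads and no other error. Rpe65, the isomerase of the RPE visual cycle, lay between 1743 and 2128 CPM in the 8 libraries, and the summed level of 12 RPE markers was between 20530 and 21390 CPM. Ttc8, the annotated symbol of Bbs8, was 14.7, 19.7, 18.2 and 21.6 CPM in Bbs8+/+ and 9.7, 3.65, 2.29 and 4.2 CPM in Bbs8-/-, with a log2 fold change of -1.95 ± 0.32 (SE; FDR 2.74e-06, edgeR quasi-likelihood test). Of 13813 genes tested, 2.24% passed FDR 0.05, 1.1% upward and 1.14% downward in Bbs8-/-.

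The 10 cone genes together had 552 counts over all 8 libraries, between 44 and 102 per library. Pde6c, Gngt2 and Gnb3 held 71.9% of these counts. Opn1sw, Gnat2, Gnb3, Gngt2, Pde6c and Arr3 were detected in all 8 libraries, Opn1mw in 6, Pde6h and Cngb3 in 5, and Cnga3 in 2. The filter on low values, at least 1 CPM in at least 4 libraries, was passed by 7 of the 10, and Pde6h, Cnga3 and Cngb3 did not pass it.

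CRX, a transcription factor that drives photoreceptor genes, binds DNA at a core that reads TAATC, and the promoters of both opsins, Gnat2 and Arr3 are shown because they hold the core in differing numbers. Promoter windows of 300 bases, 250 before and 50 after the start of transcription, were taken from RefSeq (build GRCm38.p6) for 6 of the 10 members. Capitals mark each TAATC, read on either strand (TAATC or GATTA), and the sequences run 5′ to 3′ along the gene. The windows are chr6:29380464-29380763 on the minus strand for Opn1sw and, on the plus strand, chrX:74127216-74127515 for Opn1mw, chr3:108092816-108093115 for Gnat2 and chrX:100605247-100605546 for Arr3.
Opn1sw: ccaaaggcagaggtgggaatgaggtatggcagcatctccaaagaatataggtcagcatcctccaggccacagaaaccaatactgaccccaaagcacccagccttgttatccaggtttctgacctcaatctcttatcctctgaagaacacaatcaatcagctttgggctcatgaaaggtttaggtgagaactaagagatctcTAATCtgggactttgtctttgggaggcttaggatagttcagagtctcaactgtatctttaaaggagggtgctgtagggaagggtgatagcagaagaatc
Opn1mw: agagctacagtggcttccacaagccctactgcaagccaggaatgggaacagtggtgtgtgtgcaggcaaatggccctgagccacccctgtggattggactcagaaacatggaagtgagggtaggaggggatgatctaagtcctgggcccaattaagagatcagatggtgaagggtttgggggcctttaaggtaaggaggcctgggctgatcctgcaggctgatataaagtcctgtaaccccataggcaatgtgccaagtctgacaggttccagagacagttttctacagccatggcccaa
Gnat2: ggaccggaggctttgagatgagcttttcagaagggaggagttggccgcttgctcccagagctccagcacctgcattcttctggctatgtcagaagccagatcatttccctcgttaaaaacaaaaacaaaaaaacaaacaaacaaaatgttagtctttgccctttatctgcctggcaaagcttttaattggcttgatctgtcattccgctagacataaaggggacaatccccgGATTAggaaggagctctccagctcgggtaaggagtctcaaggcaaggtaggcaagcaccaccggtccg
Arr3: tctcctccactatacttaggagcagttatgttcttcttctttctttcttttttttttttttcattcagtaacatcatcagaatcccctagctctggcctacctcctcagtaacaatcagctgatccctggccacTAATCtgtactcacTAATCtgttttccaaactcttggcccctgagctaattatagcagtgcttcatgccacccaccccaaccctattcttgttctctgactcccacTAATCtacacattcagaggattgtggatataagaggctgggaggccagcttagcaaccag
The core was found in 3 of 7 member windows, those of Opn1sw, Gnat2 and Arr3, whereas 22% of all 32851 windows held it. In Arr3 it occurred 3 times, beginning 116, 102 and 10 bases before the start, in Opn1sw once at 49 bases and in Gnat2 once at 18 bases. The windows of Opn1mw and Pde6h and both windows of Cnga3 did not hold these letters. All 5 windows of rod counterparts that were available held it. Windows were few, a gene can have several, and enrichment of the core was not tested. A match describes the sequence and was not taken as a binding site.

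The cone opsins, which set the wavelength that a cone absorbs, were at the limit of detection. Opn1sw (chromosome 6, 29376671 to 29388468 in mm10) encodes the short-wavelength opsin and had 1, 6, 4 and 11 counts in Bbs8+/+ replicates 1 to 4 and 1, 3, 6 and 9 counts in Bbs8-/- replicates 1 to 4. The groups overlapped, at 2.12 ± 1.41 and 2.28 ± 1.55 CPM (SD, n = 4 each). The log2 fold change was 0.11 with a 95% interval from -1.24 to 1.46 (edgeR FDR 0.974), and this interval spans changes of 1 log2 unit in both directions. An opposite-strand gene, Calu, shares exonic bases with Opn1sw, and Calu was at 256 ± 20.7 and 213 ± 22.2 CPM (edgeR FDR 0.0328). That call was lost in 8 of 15 alternatives, among them the replicate block (edgeR FDR 0.0599), DESeq2 (adjusted p 0.0578) and the omission of any of 5 single libraries (edgeR FDR 0.0603 to 0.231). Whether counting used strand is not given in the sources used here, so the split of reads between overlapping genes is uncertain.

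Opn1mw (chromosome X, 74127464 to 74150760) encodes the medium-wavelength opsin and had the largest fitted difference of the 7 tested members. It had 3, 0, 0 and 2 counts in Bbs8+/+ and 6, 4, 2 and 6 counts in Bbs8-/-, or 0.498 ± 0.624 and 2.36 ± 1.15 CPM (SD, n = 4 each). Bbs8-/- replicate 3, at 0.917 CPM, lay within the Bbs8+/+ range. The log2 fold change of 2.08 ± 0.90 (SE; interval 0.29 to 3.87) did not pass the threshold (edgeR FDR 0.28). The ratio of pooled counts, 18 against 5 after scaling for depth, was 4.51 with a counting interval from 1.61 to 15.5. Without its Bbs8-/- counts Opn1mw would not have passed the filter on low values, so its place among the tested genes is not independent of that difference.

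None of the transducin subunits passed the test. Gnat2 (chromosome 3, 108092789 to 108101432), the cone alpha subunit, had 1, 7, 4 and 11 counts in Bbs8+/+ and 5, 8, 5 and 5 counts in Bbs8-/-. Its levels were 2.22 ± 1.44 and 2.96 ± 0.88 CPM, with a log2 fold change of 0.36 (interval -0.91 to 1.62, edgeR FDR 0.883). The Bbs8-/- libraries lay inside the Bbs8+/+ range except replicate 2.

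Gnb3 (chromosome 6, 124834240 to 124840275) encodes the beta subunit of cones and is also expressed by ON bipolar cells. It had 10, 9, 11 and 14 counts in Bbs8+/+ and 12, 12, 8 and 15 counts in Bbs8-/-, or 4.47 ± 0.71 and 6.05 ± 1.65 CPM, and 3 of 4 Bbs8-/- libraries lay above all Bbs8+/+ libraries. The log2 fold change of 0.42 (interval -0.45 to 1.3, edgeR FDR 0.769) was within the spread between libraries.

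Gngt2 (chromosome 11, 95837216 to 95845734) encodes the cone gamma subunit and is also expressed in myeloid cells. It had 15, 11, 21 and 30 counts in Bbs8+/+ and 15, 14, 27 and 17 counts in Bbs8-/-, or 7.77 ± 2.89 and 9.18 ± 2.26 CPM, with overlapping groups and a log2 fold change of 0.24 (interval -0.43 to 0.92, edgeR FDR 0.84). Abi3, a leukocyte gene on the opposite strand, shares exonic bases with Gngt2 and had a log2 fold change of 0.41 (edgeR FDR 0.694).

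Neither phosphodiesterase gene passed a test. Pde6c (chromosome 19, 38132781 to 38183958) encodes the catalytic subunit of cones. It had 9, 20, 20 and 29 counts in Bbs8+/+ and 27, 10, 27 and 14 counts in Bbs8-/-, which gave 7.8 ± 2.78 and 10.1 ± 5.2 CPM. Within Bbs8-/- its level ran from 5.22 to 16.4 CPM, a range that enclosed 3 of the 4 Bbs8+/+ libraries. Its log2 fold change of 0.35 did not pass (interval -0.32 to 1.02, edgeR FDR 0.747).

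Pde6h (chromosome 6, 136923832 to 136968865) encodes the small inhibitory subunit of the cone enzyme. It had 2, 3, 4 and 2 counts in Bbs8+/+ and 1, 0, 0 and 0 counts in Bbs8-/-. It was the only member whose groups did not overlap, a pattern shown by 7.38% of the genes tested, although Pde6h itself was not among them. Its Bbs8+/+ and Bbs8-/- levels of 0.698 to 1.87 and 0 to 0.607 CPM were separated by less than what 1 count is worth. The pooled counts of 11 and 1 gave a ratio of 8.79 in favour of Bbs8+/+, with a counting interval from 1.28 to 378. In a fit without the filter, FDR was 0.482 by edgeR. Arhgdib, an opposite-strand leukocyte gene with shared exonic bases, stood at 41.5 ± 9.45 and 45.7 ± 2.58 CPM.

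Neither channel subunit could be compared. Cnga3 (chromosome 1, 37214434 to 37263384) had 1 count in Bbs8+/+ replicate 2, 3 counts in Bbs8-/- replicate 4 and 0 in the other 6 libraries. Cngb3 (chromosome 4, 19280850 to 19510623) had 1, 0, 3 and 0 counts in Bbs8+/+ and 1, 0, 1 and 3 in Bbs8-/-. No library of either gene exceeded the floor of 3 counts. The cone arrestin Arr3 (chromosome X, 100605497 to 100618493), which quenches the activated opsin, had 2, 4, 3 and 3 counts in Bbs8+/+ and 1, 3, 1 and 3 in Bbs8-/-. Its log2 fold change of -0.25 had an interval from -2.02 to 1.51 (edgeR FDR 0.949).

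**Figure D1:**
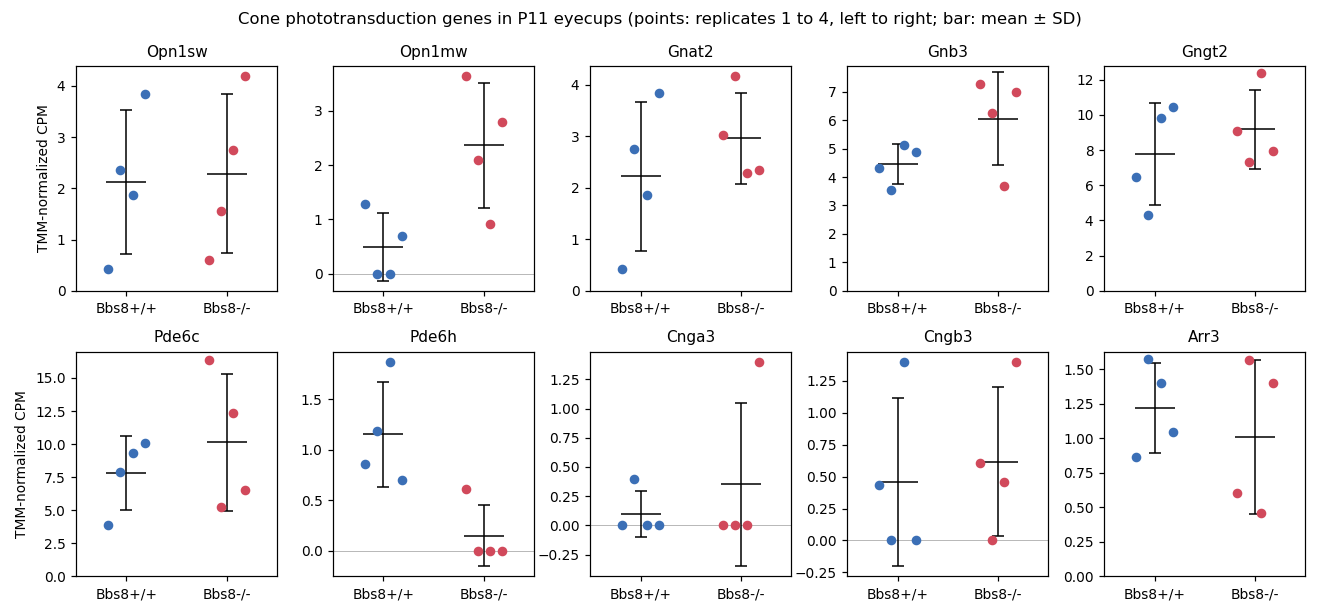
TMM-normalized CPM (y axis) of each cone gene in the 4 Bbs8+/+ (blue) and 4 Bbs8-/- (red) libraries, with the mean and SD as bars. All members overlap between the genotypes except Pde6h, which has 0 counts in 3 Bbs8-/- libraries, and Opn1mw has 0 counts in 2 Bbs8+/+ libraries.

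None of the 7 tested members passed FDR 0.05 with edgeR, where 2.24% of all tested genes did, and 1 (Opn1mw) had an unadjusted p under 0.05, where 13% of all tested genes did. In DESeq2 the same gene had an unadjusted p under 0.05, and all 7 adjusted values were missing because of its filter on low means. Fitted values were above 0 for 6 of the 7 and for 6834 of all 13813 tested genes, with medians of 0.35 and -0.0041. These figures carry no weight as support, since Opn1mw entered through its Bbs8-/- counts and Pde6h, lower in Bbs8-/-, was left out by the filter.

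The counts were summed because single genes were low. The summed cone level was 19, 24, 32.7 and 35.6 CPM in Bbs8+/+ and 41.9, 28.2, 35.3 and 35 CPM in Bbs8-/-, or 27.8 ± 7.69 and 35.1 ± 5.58 CPM (SD, n = 4 each). Only Bbs8-/- replicate 1 lay above the highest Bbs8+/+ library, and the difference of the means was smaller than the SD within Bbs8+/+. The log2 ratio of the means was 0.34, and the ratio of pooled counts had a counting interval from 1.05 to 1.47. That interval treats pooled reads as independent and leaves out the spread between libraries, so it cannot stand in for a test of genotype. No test was made of this sum. Without Pde6c, Gngt2 and Gnb3 the log2 ratio was 0.32, and without the 3 members that share exonic bases with another gene it was 0.49, both chosen after seeing the data.

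By role, the log2 ratios of the summed levels were 0.82 for the opsins, 0.33 for transducin, 0.20 for phosphodiesterase and -0.28 for arrestin. The genotypes overlapped in each of these sums. With one library left out, the ratio ranged from 0.56 to 1.23 for the opsins, from 0.21 to 0.50 for transducin and from -0.57 to -0.034 for arrestin, and the phosphodiesterase ratio turned to -0.15 without Bbs8-/- replicate 1 and to -0.0083 without Bbs8+/+ replicate 1. The channel subunits had 5 pooled counts in Bbs8+/+ and 8 in Bbs8-/-, of which 6 came from replicate 4. Their log2 ratio of 0.80 became -0.65 without that library and 1.82 without Bbs8+/+ replicate 3.

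Of the 8 rod versions of these proteins that were compared, Gnat1 was lower in Bbs8-/-. Gnat1, the rod transducin alpha subunit, was 39.2, 36.2, 61.2 and 45 CPM in Bbs8+/+ and 30.9, 30.3, 19.7 and 20.1 CPM in Bbs8-/-, which gave a log2 fold change of -0.86 ± 0.18 (SE; edgeR FDR 0.0005). The genotypes did not overlap in this gene. Beside it, its cone counterpart Gnat2 had a log2 fold change of 0.36, which was 0.037 without Bbs8+/+ replicate 1 and 0.77 without Bbs8+/+ replicate 4. The difference between cone and rod genes was not tested.

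Of the 8 rod counterparts, all tested, 1 passed downward (against 1.14% of all genes) and none upward, with a median log2 fold change of -0.20. Sag, the rod arrestin, had -0.32 and did not pass (edgeR FDR 0.0706). Pde6a (-0.12), Pde6b (-0.14), Pde6g (0.10), Gngt1 (-0.28), Cnga1 (-0.27) and Cngb1 (0.14) did not pass, and neither did the widely expressed Gnb1 (0.07). Fewer rods or cones in a preparation and less RNA per cell cannot be told apart in these bulk libraries.

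**Figure D2:**
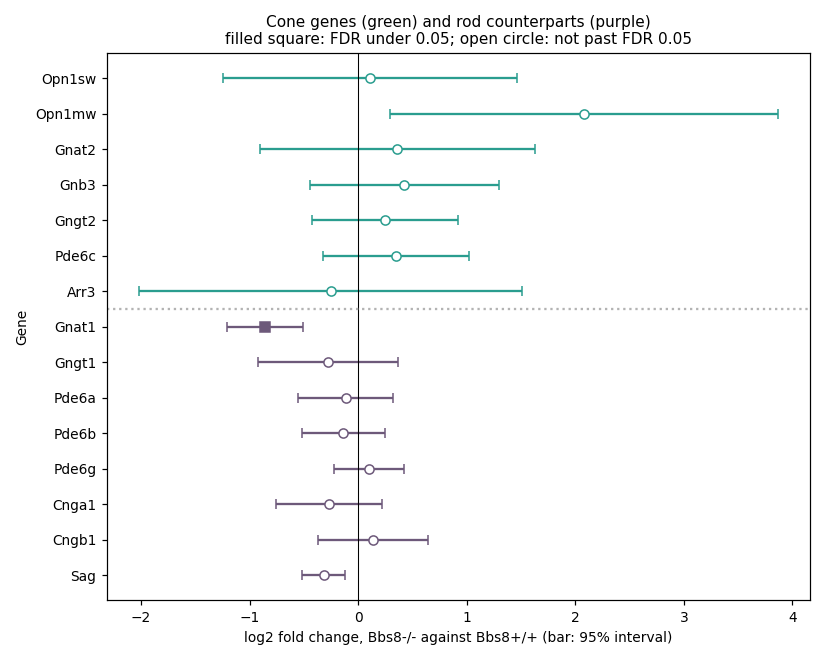
Log2 fold change of Bbs8-/- against Bbs8+/+ (x axis) with its 95% interval for the 7 tested cone genes (green) and the 8 rod counterparts (purple). The filled square marks Gnat1, which passed FDR 0.05, and the intervals of the cone genes other than Opn1mw include 0.

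The summed level of the 8 rod genes ran from 291.2 to 329.8 CPM in Bbs8+/+ and from 223.7 to 274.1 CPM in Bbs8-/-, a log2 ratio of -0.26. Mean levels fell from 134.2 to 107.8 CPM for Sag and from 45.4 to 25.3 CPM for Gnat1. Gngt1, Pde6a, Pde6b and Cnga1 fell less in CPM. Pde6g rose from 37.8 to 40.4 CPM and Cngb1 from 13.8 to 15.3 CPM. The lower rod sum, which also enters the cone share, thus came mostly from Sag and Gnat1. Cone counts made up 6.11%, 7.61%, 9.52% and 9.74% of cone plus rod counts in Bbs8+/+ and 14.3%, 9.33%, 11.5% and 13.5% in Bbs8-/-. The group means were 8.25% ± 1.72 and 12.2% ± 2.23 (SD, n = 4 each). The groups overlapped, since Bbs8-/- replicate 2 lay below Bbs8+/+ replicates 3 and 4, and its exact binomial 95% interval was 7.08% to 11.99%. No test was made of this share.

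**Figure D3:**
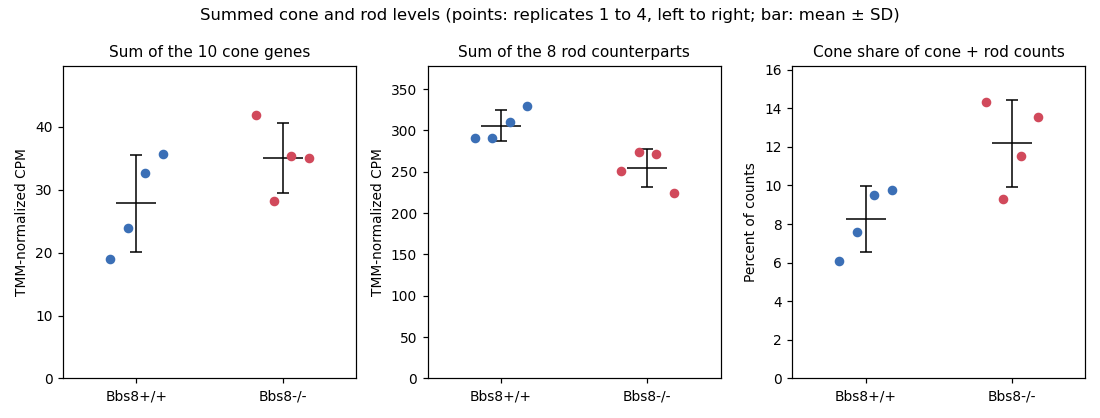
Summed TMM-normalized CPM of the 10 cone genes and of the 8 rod counterparts, and cone counts as a percentage of cone plus rod counts, in each library (points) with mean and SD. The cone sums overlap between 28.2 and 35.6 CPM, while the rod sums of the genotypes are separated, mostly through Sag and Gnat1.

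Other phototransduction genes, of rods or of both cell types, and regulators of photoreceptor identity were then compared. Among 21 tested of 23 such phototransduction genes, such as the opsin kinase Grk1 and the calcium sensor Rcvrn, none passed FDR 0.05 with edgeR or DESeq2, which gave no adjusted value for 13 of them, and 0 had an unadjusted p under 0.05 with either tool. Their median log2 fold change was -0.07. The most abundant, Slc24a1, a sodium, calcium and potassium exchanger of rods, and Pdc, which encodes phosducin, had 0.05 and -0.03.

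Among 16 tested of 21 genes of cone identity and photoreceptor transcription, 2 were up-regulated and 1 was down-regulated, beside 1.1% and 1.14% of all tested genes, with a median of 0.02. Otx2, a regulator of both photoreceptors and RPE, rose from 554 ± 11.6 to 771 ± 21.9 CPM, or by 0.48 on the log2 scale (edgeR FDR 6.01e-12). Nr2e3, a rod factor that represses cone genes, rose from 20 ± 4.58 to 33.5 ± 5.89 CPM, or by 0.75 on the log2 scale (edgeR FDR 0.0143), with no overlap. It did not pass without Bbs8+/+ replicate 1 (edgeR FDR 0.0939) or without Bbs8-/- replicate 3 (edgeR FDR 0.148). Nr2f2, a nuclear receptor also found in vessels and stroma, fell from 425 ± 32.9 to 330 ± 22.9 CPM (edgeR FDR 3.14e-05). Thrb, the thyroid hormone receptor gene needed for medium-wavelength opsin, had a log2 fold change of 0.16 (edgeR FDR 0.817), and Rxrg, its partner in cones, 0.22 (edgeR FDR 0.925).

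Markers of other cells were measured beside these values. Of 5 bipolar cell genes tested of 8, none passed with edgeR or DESeq2, which gave no adjusted value for 4 of them. In the main edgeR fit and in DESeq2, 0 had an unadjusted p under 0.05. Among the edgeR alternatives, Gpr179 had one with the replicate block and Cabp5 had one without a filter. The most abundant bipolar genes were Prkca (0.22) and Gpr179 (0.89), and the sum of all 8 was 46 to 64.6 CPM in Bbs8+/+ and 54.2 to 78.4 CPM in Bbs8-/-. Prkca alone had means of 42.2 and 49.4 CPM, so this sum mostly follows that gene. All 5 tested bipolar genes had fitted values above 0, where 6834 of all 13813 tested genes did. The 3 that were not tested had few counts and went both ways, with 11 pooled counts in Bbs8+/+ and 3 in Bbs8-/- for Grm6, the receptor of ON bipolar cells, 3 and 16 for Cabp5, of which 11 came from Bbs8-/- replicate 4, and 1 and 5 for Gng13. All 11 leukocyte genes also had fitted values above 0, and 1 (Csf1r, 0.28) passed FDR 0.05, beside 1.1% of all tested genes upward. Csf1r did not pass without Bbs8+/+ replicate 1 (edgeR FDR 0.0595) or Bbs8-/- replicate 4 (edgeR FDR 0.0961). The leukocyte sum was 421.4 to 448.8 CPM in Bbs8+/+ and 498.1 to 550 CPM in Bbs8-/-. The part of these cells in the values of Gnb3 and Gngt2 was not tested.

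The counts of genes that passed in the other lists stand beside 1.1% of all tested genes upward and 1.14% downward. In inner retinal neurons 1 of 6 tested genes passed upward (Slc6a9, 0.34, but edgeR FDR 0.0671 without Bbs8+/+ replicate 2), with summed levels of 294.5 to 316.2 and 324 to 351.9 CPM. Slc6a9 (means 163 and 205.9 CPM) and Rbpms (means 92.1 and 83.4 CPM) made up most of this list's sum. Of the ganglion cell genes in that list, Pou4f1 had 5 and 15 pooled counts (edgeR FDR 0.384), Slc17a6 4 and 4, Pou4f2 1 and 0, and Rbpms a log2 fold change of -0.14 (edgeR FDR 0.649). In Müller glia 1 of 7 passed (Dkk3, -0.36), with sums of 1130 to 1182 and 1064 to 1080 CPM. In the RPE list 3 of 12 passed, all downward (Mitf, Tyrp1 and Pmel), while 7 of 12 fitted values were above 0 and the median was 0.07. The genotypes did not overlap in 6 of the 12, 3 lower (the same that passed) and 3 higher (Ttr, Rlbp1 and Stra6), beside 7.38% of all tested genes. None of the 3 higher genes passed, although Stra6 passed with another filter (edgeR FDR 0.0455) and with DESeq2 (adjusted p 0.0293). Choroid may have been measured with the RPE, so the cells behind the values of Mitf, Tyrp1 and Pmel were not resolved. Lens genes passed upward in 13 of 19 with edgeR and in 6 with DESeq2, which gave 12 no adjusted p, with Crygb (3.68), Cryga (5.06), Cryaa (3.00) and Crygc (4.19) at the lowest p-values. The fibre genes Mip (0.30), Lim2 (0.40), Bfsp1 (0.93) and Bfsp2 (0.30) did not pass, and the list had sums of 225.3 to 263.5 and 646.5 to 691.8 CPM. Opn1mw and Arr3 are X-linked, and the genotypes also differed in sex-linked transcripts: the summed level of 4 Y-linked genes was 58.98 to 64.91 CPM in Bbs8+/+ and 108.1 to 119.5 CPM in Bbs8-/- (Uty, Ddx3y and Kdm5d passed upward). Xist had means of 689 and 588 CPM (edgeR FDR 0.00646, and 0.102 without Bbs8+/+ replicate 1). The part of these other cells and of the mixture of sexes in the cone values was not tested.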

How the data were processed

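RNA of 8 eyecup libraries (4 Bbs8+/+, 4 Bbs8-/-) was analysed. The authors deposited, for every gene, a raw count of its uniquely mapped reads. Per the study's methods, the authors trimmed reads with BBDuk, aligned them with STAR to mm10 and counted them with htseq-count, with no stated strand setting. Reads assigned to no feature were left out of all totals (42.1% to 44.4% per library). Symbols and positions were taken from GENCODE M21 (30934 of 31053 identifiers matched).

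The filter kept genes reaching 1 CPM in 4 or more libraries. Genotype was the sole term of a two-sided edgeR quasi-likelihood test (edgeR 4.0.16, R 4.3.3, TMM factors), adjusted over all 13813 genes (FDR 0.05). The study's filter on multi-mapped reads was not applied. Standard errors were the fold change divided by the square root of F. CPM were TMM-normalized. Counting intervals were exact (95%, scipy 1.17.1). The procedure was tested on simulated counts in which only genes well above the detection floor were changed. That simulation does not cover the members near the floor. DESeq2 1.42.0 was an alternative.

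The members and gene lists were chosen with earlier results of these data known, and sums over members were therefore not tested. Named were all members, their rod counterparts, Ttc8 and, of each other list, the genes past FDR 0.05 (the 4 with the lowest p where more passed, the 2 most abundant where none did). Other genes, such as Grm6, Cabp5, Gng13, the ganglion cell genes, 4 lens fibre genes, Ttr, Rlbp1, Stra6, Thrb, Rxrg and the opposite-strand neighbours, were named after their values were seen. 3 genes of the lists are not reported here and were left out of all list counts and sums. Levels were not tested between genes. Ranks by CPM and shares of summed counts are descriptions of these counts. Alternatives covered scaling, filter, tool, depth, a replicate block and each library left out.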

Additional observations from a re-analysis of the deposited data

Results flagged for a closer look

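In 5 of 52 groups of 4 libraries, the gap between 1 library and its nearest neighbour took up most of the group's range. Pde6h was 0.607 CPM in Bbs8-/- replicate 1 against 0 in the others. Cnga3 stood at 0.393 CPM in replicate 2 of Bbs8+/+, and at 1.4 CPM in replicate 4 of Bbs8-/-, again against 0 in the others of each genotype. These 3 values stand for 1, 1 and 3 counts. A group with 0 in all libraries but 1 always meets this rule, so these flags follow from low counts. Pde6a was 14.9 CPM in Bbs8-/- replicate 4 against 20 to 20.9 CPM, and Sag was 150.4 CPM in Bbs8+/+ replicate 4 against 127.5 to 130.9 CPM.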

How the results depend on the processing

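No member passed FDR 0.05 in any of the 15 edgeR fits that gave it a value. Pde6h, Cnga3 and Cngb3 had a value only in the fit without a filter, Opn1mw fell under the filter in several, and DESeq2 gave the members no adjusted p. With one library left out, Opn1sw ranged from -0.34 (without Bbs8-/- replicate 4, and -0.21 without Bbs8+/+ replicate 1) to 0.58 and Arr3 from -0.52 to 0.00049, Pde6a from -0.19 to 0.031 and Pde6g from -0.092 to 0.20, each of which changed sign. Pde6b was 0.011 after thinning to the smallest total. Cngb1 ranged from 0.017 (without Bbs8-/- replicate 1) to 0.22, Gngt1 from -0.44 to -0.13 and Cnga1 from -0.34 to -0.093 (the latter after thinning). The summed cone ratio stayed between 0.19 and 0.48 with one library left out and between 0.26 and 0.49 otherwise, the latter with Opn1sw, Gngt2 and Pde6h taken out of the sum, a choice made after seeing the data. The phosphodiesterase ratio ranged from -0.15 to 0.42. The channel ratio ranged from -0.65 to 1.82, the median of the other phototransduction genes from -0.24 to -0.0015, that of identity genes from -0.071 to 0.060, and the number of identity genes higher from 1 to 2 (1 without Bbs8-/- replicate 3 or Bbs8+/+ replicate 1, where Nr2e3 was lost). Gnat2 ranged from 0.037 to 0.77, Gngt2 from 0.045 (without Bbs8+/+ replicate 2) to 0.44 and Pde6c from 0.054 (without Bbs8-/- replicate 1) to 0.56. Gnb3 ranged from 0.18 (after thinning) to 0.61. Csf1r no longer passed without Bbs8-/- replicate 4 or Bbs8+/+ replicate 1, nor Slc6a9 without Bbs8+/+ replicate 2, nor Xist without Bbs8+/+ replicate 1 or Bbs8-/- replicate 3. One RPE gene was higher at FDR 0.05 with filterByExpr (Stra6) or without Bbs8+/+ replicate 3 (Ttr). The genes lower in Bbs8-/- numbered 101 to 150 with one library left out, 101 of them without Bbs8-/- replicate 1, against 157. Sag passed without Bbs8-/- replicate 2 (-0.40, edgeR FDR 0.0261) or replicate 3 (-0.40, edgeR FDR 0.0273), so that the rod genes lower numbered 1 to 2. With the replicate block, 134 genes were higher and 129 lower, and no call on a member or rod gene changed, but that on Calu was lost. Deviations of same-numbered libraries correlated from -0.0514 to 0.0208 over 6169 genes, and the replicate numbers were not taken as pairs. For each of these shifts, the cause was not tested. Depth limits every cone value.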
